A study of Mus musculus with 6 samples.

Results

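The genes described here are the subunits of the proteasome, its regulatory particles and the chaperones that assemble it, with 1 unrelated gene, Psmc3ip, that their naming rule takes in. The 47 are all genes with a single annotated symbol made of Psm, a letter from a to g and a number, apart from the inducible catalytic subunits Psmb8 and Psmb9 and pseudogenes, and they stand among 20416 genes with a value. By role they are 8 alpha and 9 beta subunits of the core, 7 Psmc genes (the 6 cap ATPases and Psmc3ip), 14 Psmd genes, 4 activators, 1 inhibitor and 4 core chaperones. The Psmd genes are cap subunits and 3 base assembly chaperones. All Psmc and Psmd genes are grouped here as the cap. The study hybridised blood stem cells sorted from mouse marrow to 6 arrays, 3 of controls and 3 of mice that were beta-catenin floxed and vav-Cre positive. The gate, KLS CD34-, takes cells with c-Kit and Sca-1 but without lineage markers or CD34, in the usual reading of that label. Ages and strains are not given in the sources used here. Vav-Cre recombines floxed alleles throughout blood-forming cells, not in stem cells alone. The labels do not say whether the controls carried floxed alleles or Cre, nor whether the replicates were separate animals or pools, so the spread behind each p-value is that between these samples and may be technical.

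The proteasome degrades proteins tagged with ubiquitin. Its core is a barrel of stacked rings, in which alpha subunits form the gate and 3 of the beta subunits, Psmb5, Psmb6 and Psmb7, cut the substrate. The cap binds ubiquitin, removes it, and unfolds the substrate with a ring of ATPases, while activators can open the gate in place of a cap. In blood stem cells, whose rate of protein synthesis is low, protein quality control has been linked to self-renewal, and the level of beta-catenin is itself set by ubiquitin tagging and the proteasome. The transcription factor NRF1, encoded by Nfe2l1, is known to raise proteasome gene transcription when proteasomes are impaired.

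Values were deposited by the authors as log2 expression, each gene was given the median of its probe sets on an array, and each difference is the floxed mean less the control mean, in log2 units. The array medians lay between 7.56 and 7.65, and correlations over genes, themselves no replicates, ran from 0.97 to 0.978 between controls, from 0.989 to 0.991 between floxed arrays and from 0.974 to 0.989 across groups. The floxed gene, Ctnnb1, had 5 of 17 probe sets that passed on the lower side, with differences from -6.90 to -2.51 (limma adjusted p from 0.000464 to 0.0110), on the side that the labels give. Of 10 stem cell markers 9 were measured, among them Kit and Ly6a of the gate, and Cd34 had 12.6 to 12.7 on the 6 arrays although the gate takes cells without CD34 on the surface. Without detection calls no gene can be said to be absent. Granulocyte markers (10 of 10 measured) averaged 10.38, 10.43 and 9.37 log2 on controls 1 to 3 and 9.50, 9.44 and 10.18 on floxed arrays 1 to 3, and B cell markers (5 of 6 measured) averaged 9.01, 8.60 and 7.62 against 8.19, 8.33 and 8.74. Both lists were lowest on control replicate 3. Erythroid markers (5 of 8 measured) averaged 10.01 to 10.21 in controls and 9.77 to 10.18 in floxed arrays, T cell markers (5 of 6) 6.64 to 6.92 and 6.20 to 6.67, and stem cell markers 9.47 to 9.76 and 9.51 to 9.81. Of the 35 measured markers 26 were lower in floxed arrays and 9 higher, where 49.8% of all genes were higher. All 10 granulocyte and all 5 erythroid markers were lower, while 6 of 9 stem cell markers were higher. No marker passed in limma. At an unadjusted limma p under 0.05 stood 3 of 35, all 3 lower in floxed arrays (Ngp, Epor and Cd3e), as did 2.52% of all genes on that side. In bulk samples fewer cells of a type and less RNA per cell cannot be told apart.

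Most proteasome genes lay slightly higher in floxed arrays, and none passed the test. By gene medians the core showed this most evenly, with 16 of 17 genes on the higher side and the largest differences for Psmb4 and Psma6. This order of core and cap did not hold with the mean of probe sets. There Psma5, Psmb3, Psmb5 and Psmb11 of the core were lower, and of the cap only Psmd5. The median difference of the 47 genes was 0.18 log2, a fold of 1.13, against -0.00083 over all genes. Of the members 38 (80.9%) were higher and 9 lower, where 49.8% of all genes were higher. In limma, 0 of 47 members passed with adjustment over all genes, beside 2 of all genes (0.0098%; 0.0049% higher and 0.0049% lower), and the smallest adjusted p of a member was 0.915. At an unadjusted limma p under 0.05 stood 6 members on the higher side (12.8%, against 2.71% of all genes) and 0 on the lower side (against 2.52%). The groups did not overlap for 9 members that were higher (19.1%, against 5.05% of all genes) and for 1 that was lower (2.13%, against 5.49%). The largest member difference was 0.50 and the lowest -0.22, and all 47 confidence intervals at the 95% level lay within 1 log2 of 0, 21 of them within 0.5. Most genes did so too: of all 20416 genes 19619 lay within 1 and 8066 within 0.5.

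**Figure D1:**
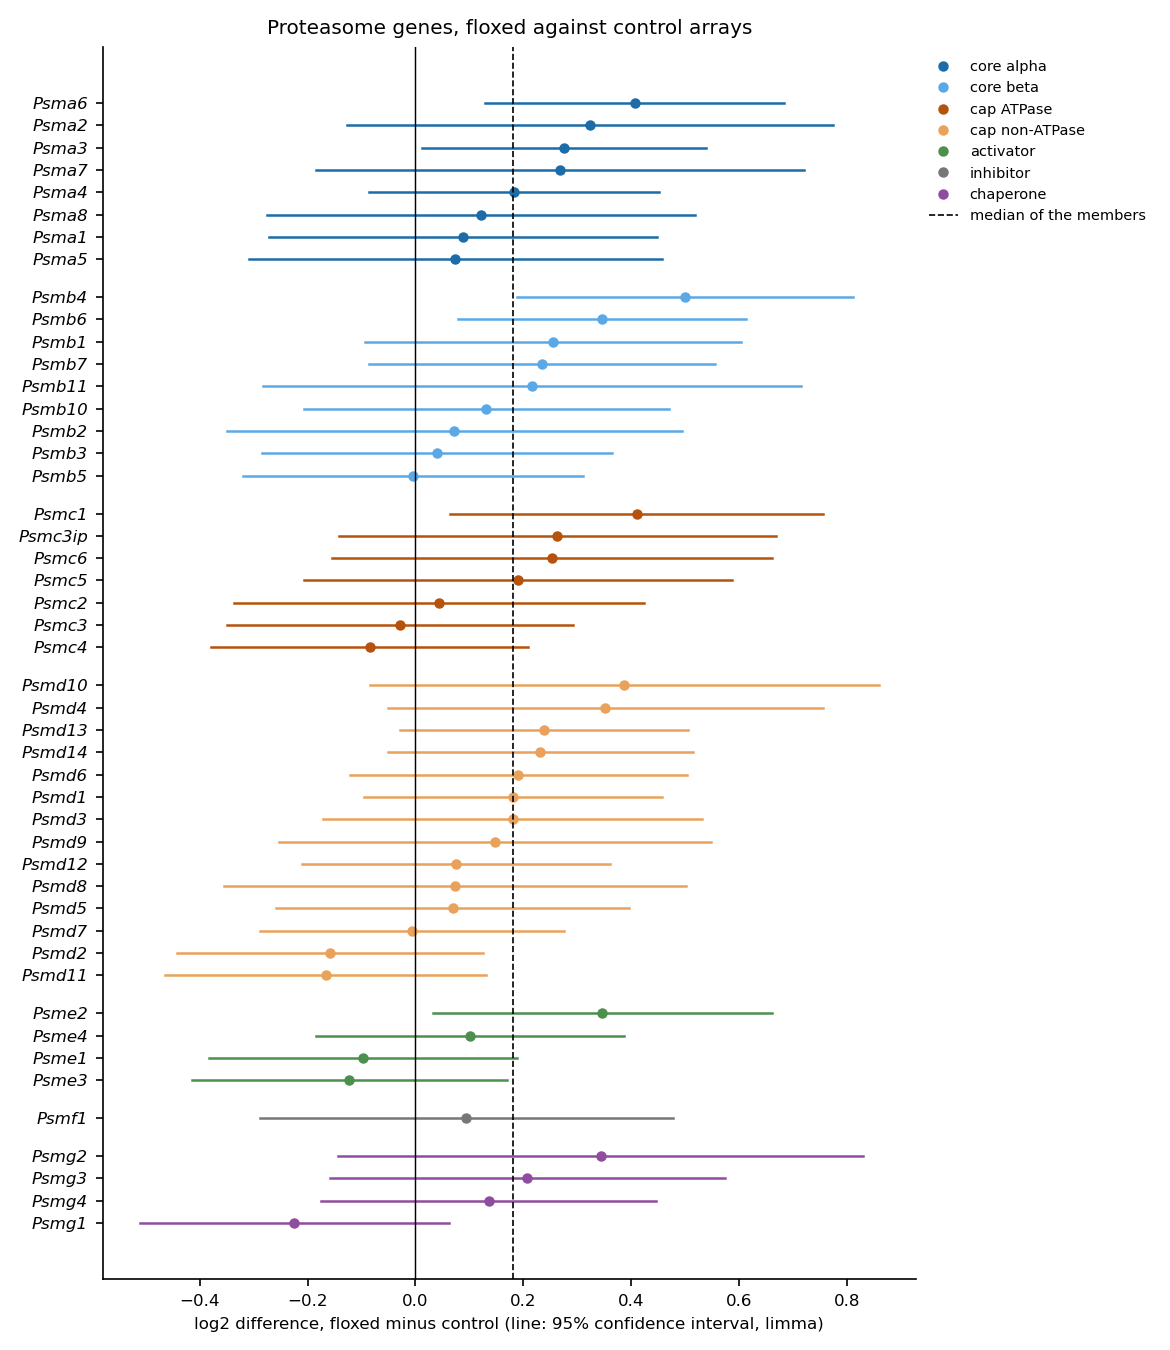
Log2 difference of each of the 47 proteasome genes, floxed minus control (points, 3 against 3 arrays), with its 95% confidence interval from limma (lines), grouped by role; the dashed line is their median, 0.18. Points lie to the right of 0 for 38 genes, from -0.22 (Psmg1) to 0.50 (Psmb4), and most intervals reach across 0.

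Among the 6 arrays control replicate 3 moved the difference most. The median deviation of the members from each gene's 6-array mean was 0.061, -0.046 and -0.24 log2 on controls 1 to 3 and 0.091, 0.071 and 0.078 on floxed arrays 1 to 3. Control replicate 1 thus stood near the floxed arrays, and only control replicate 3 lay far below. Of the 47 members 28 (59.6%) had their lowest value on control replicate 3, as did 29.5% of all genes, whose median deviation there was -0.043. Without that array the median difference was 0.045, against -0.014 over all genes, and 32 members were higher and 15 lower; 40 of the 47 differences moved down. Without control replicate 1 the median was 0.22, 20 members had an unadjusted p under 0.05 on the higher side (9.06% of all genes did), and the smallest limma adjusted p was 0.0656, that of Psmb4. The part of the granulocyte and B cell signal, also lowest on control replicate 3, in these differences was not tested.

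**Figure D2:**
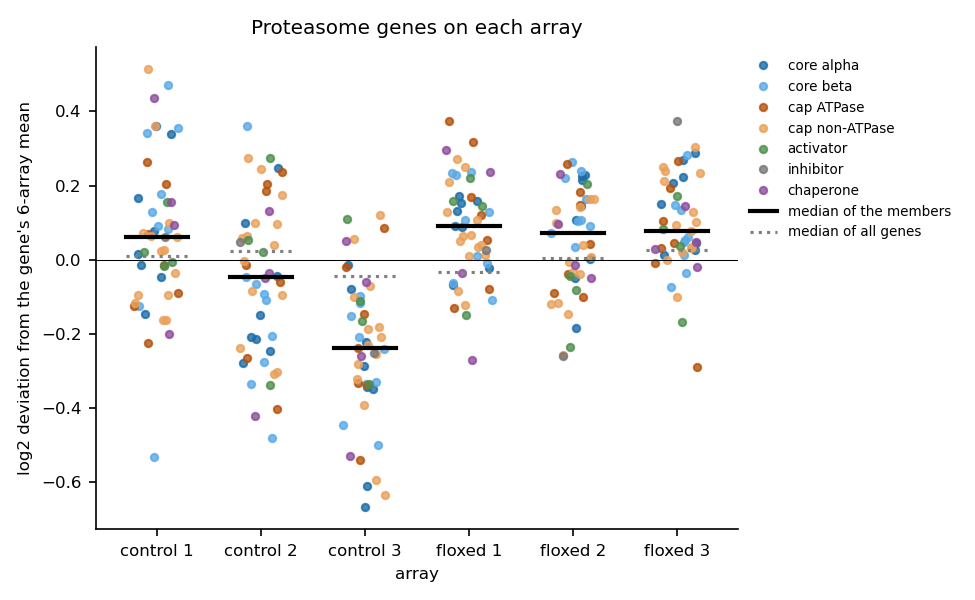
Log2 deviation of each of the 47 genes from its mean over the 6 arrays (points, coloured by role), by array, with the median of the members (black bars) and of all genes (dotted grey bars). The members' median is -0.24 on control 3 and between -0.046 and 0.091 on the other 5 arrays.

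**Figure D3:**
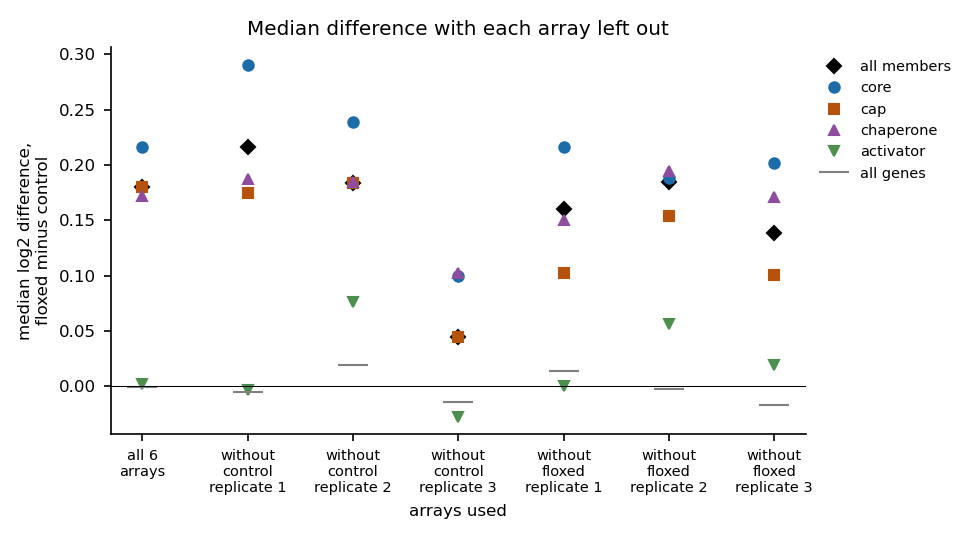
Median log2 difference, floxed minus control, of all members and of the core, cap, chaperone and activator genes, with all 6 arrays and with each array left out; grey dashes are the median of all genes. The members' median falls from 0.18 to 0.045 when control replicate 3 is left out and lies between 0.14 and 0.22 without any other single array.

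The spread within groups differed as well. In log2 units the SD of a member was 0.21 at the median among controls but 0.11 among floxed arrays, where all genes had 0.23 and 0.15. For 37 of 47 members (78.7%) the control SD was the larger, as for 70.9% of all genes. Psmd8, a lid subunit, shows the extreme: its controls had 11.26, 10.44 and 10.43 and its floxed arrays 10.79, 10.79 and 10.78. The floxed values of Psmd8 thus lay between the controls, and its difference was 0.073.

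All 8 alpha subunit genes of the core lay on the higher side, with a median difference of 0.23. Psma6 had 10.66, 10.37 and 10.30 on controls 1 to 3 and 10.81, 10.87 and 10.87 on floxed arrays 1 to 3. Every floxed array thus exceeded every control, by a mean of 0.41 (SE 0.13; 95% confidence interval 0.13 to 0.68; limma adjusted p = 0.915). Psma3 had 10.07, 10.17 and 9.99 in the controls, against 10.37, 10.43 and 10.26 in the floxed arrays, again without overlap, and a difference of 0.28 (SE 0.12). Psma4 also separated as a gene median, with 9.83, 9.72 and 9.79 against 9.85, 10.02 and 10.02, though floxed replicate 1 barely cleared the highest control (difference 0.18, SE 0.12). All 9 probe sets of Psma4 were higher in floxed arrays, but 0 of them separated the groups when taken singly. Psma2 and Psma7 had differences of 0.32 and 0.27 with wide control spreads (SD 0.48 and 0.46). Psma2 had 10.11, 9.56 and 9.16 against 9.86, 9.88 and 10.06, and the controls of Psma7 ran from 9.53 down to 8.70. In both the groups overlapped and control replicate 3 was the lowest array. Without that array the differences of Psma2 and Psma7 were 0.10 and 0.0014, while those of Psma6 and Psma3 were 0.33 and 0.23. With only its brightest probe sets Psma6 had 0.24. Psma1 and Psma5 had 0.088 and 0.074, and the testis-restricted Psma8 had 0.12 at a dim level. Psma8 had 6.65 ± 0.17 (SD, n = 3) in controls and lay below 7.60, the median of the probe-set means.

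Among the beta subunits Psmb4, a structural subunit without a catalytic site of its own, had the largest difference of all members. Its values were 11.65, 11.23 and 11.07 in the controls, against 11.80, 11.81 and 11.85 in the floxed arrays. The floxed arrays agreed to within an SD of 0.029, whereas the controls spread with an SD of 0.30, and the groups did not overlap. The difference was 0.50 (SE 0.14; 95% confidence interval 0.19 to 0.81), a fold of 1.41, at an unadjusted limma p of 0.00457 and an adjusted p of 0.915. It was 0.38 without control replicate 3. The structural subunit Psmb1 had 9.50, 9.30 and 8.93 against 9.50, 9.48 and 9.52 (difference 0.26, SE 0.16), so control replicate 1 reached the floxed values, and 0.097 without control replicate 3. Psmb2 and Psmb3, the other structural subunits, had differences of 0.072 and 0.040, and for both the highest value was that of control replicate 1.

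Of the 3 constitutive catalytic subunits Psmb6 and Psmb7 lay higher and Psmb5 did not. Psmb6, which cuts after acidic residues, had 10.01, 9.86 and 10.02 in the controls, against 10.37, 10.36 and 10.20 in the floxed arrays. All floxed arrays lay above all controls, and the difference was 0.35 (SE 0.12; 95% confidence interval 0.078 to 0.61; limma adjusted p = 0.915). Psmb6 is also the member whose difference leaned least on control replicate 3 among those at an unadjusted p under 0.05, with 0.37 without it. Psmb7, which cuts after basic residues, had 9.63, 9.43 and 9.20 against 9.77, 9.64 and 9.55, with overlap between the groups (difference 0.23, SE 0.15; 0.13 without control replicate 3). Psmb5, which cuts after hydrophobic residues and is the target of the drug bortezomib, had 12.03, 11.60 and 11.45 against 11.63, 11.79 and 11.66. The floxed values of Psmb5 fell inside the range of the controls, the difference was -0.0045 (SE 0.14), and its 95% confidence interval ran from -0.32 to 0.31. Whether Psmb5 and Psmb6 differ in their response was not tested. The inducible counterpart of Psmb7, Psmb10, had 0.13 (SE 0.15), and the inducible Psmb8 and Psmb9, which are not among the 47, had 0.12 (SE 0.13) and 0.25 (SE 0.14). Neither passed (limma adjusted p = 0.938 and 0.915). Psmb11, the catalytic subunit of thymic epithelium, was the dimmest of the 47 and had no probe set at or above the median level. Its controls had 5.51, 6.40 and 5.88 and its floxed arrays 6.14, 6.20 and 6.09.

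**Figure D4:**
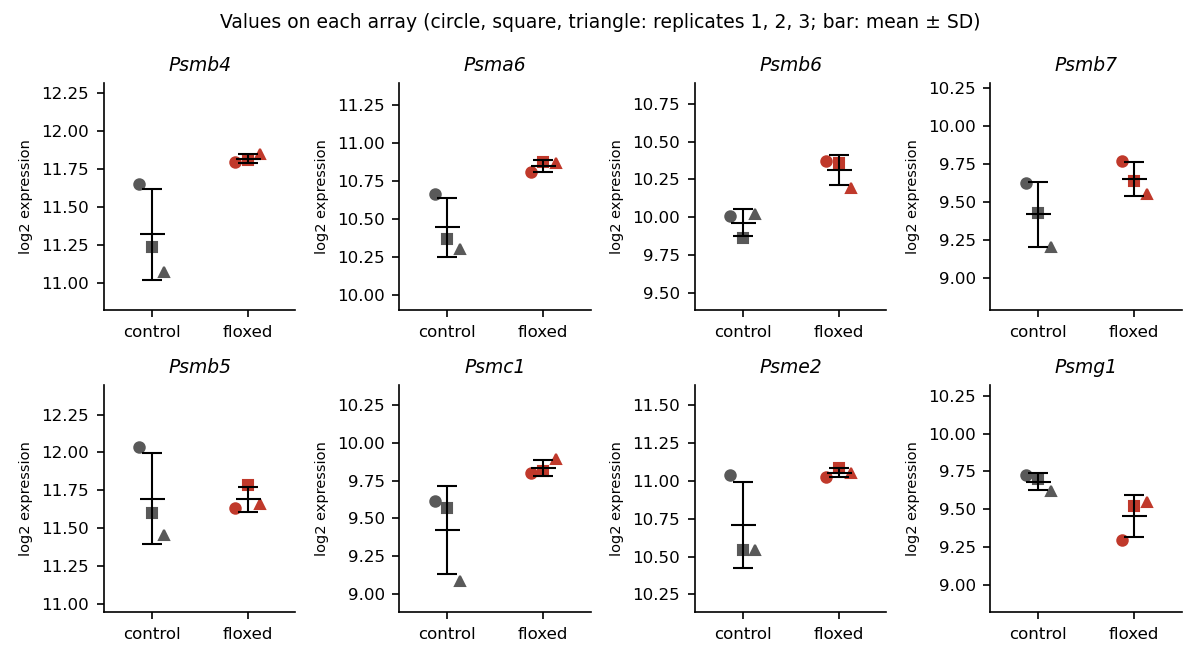
Log2 expression on each array for 8 proteasome genes, controls in grey and floxed arrays in red, with symbols for replicates 1, 2 and 3 and bars for the mean ± SD (n = 3); every panel spans the same number of log2 units around its own mean. Floxed values lie above all controls for Psmb4, Psma6, Psmb6 and Psmc1, within or overlapping them for Psmb7, Psmb5 and Psme2, and below them for Psmg1.

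Sequences upstream of the start sites were available for 39 of the 47 genes from RefSeq (GRCm38.p6). Those of the core genes with the largest differences are given beside that of Psmb5, whose gene value differed little, so that the letters next to each start can be compared. Each run holds the 250 bases before a start, 5′ to 3′ on the gene's own strand. Capitals mark matches, on either strand, to an NRF1 element (TGACNNNGC), a CCAAT box (CCAAT), an ETS site (CCGGAAG) or an E-box (CACGTG), and no matches overlap in these runs.
Psmb4 (chr3:94886959-94887208, minus strand): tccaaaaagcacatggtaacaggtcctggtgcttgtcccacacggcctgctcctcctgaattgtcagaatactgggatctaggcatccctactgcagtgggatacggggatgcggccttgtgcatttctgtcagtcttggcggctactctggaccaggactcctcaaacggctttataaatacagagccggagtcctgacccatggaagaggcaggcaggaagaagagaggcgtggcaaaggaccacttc
Psma6, the start nearer the chromosome start (chr12:55383972-55384221, plus strand): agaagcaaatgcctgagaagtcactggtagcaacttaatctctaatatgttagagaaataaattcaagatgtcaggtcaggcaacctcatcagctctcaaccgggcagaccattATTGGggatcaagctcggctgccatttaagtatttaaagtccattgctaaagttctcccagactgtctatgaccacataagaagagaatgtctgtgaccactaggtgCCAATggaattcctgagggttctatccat
Psma6, the other start (chr12:55398575-55398824, plus strand): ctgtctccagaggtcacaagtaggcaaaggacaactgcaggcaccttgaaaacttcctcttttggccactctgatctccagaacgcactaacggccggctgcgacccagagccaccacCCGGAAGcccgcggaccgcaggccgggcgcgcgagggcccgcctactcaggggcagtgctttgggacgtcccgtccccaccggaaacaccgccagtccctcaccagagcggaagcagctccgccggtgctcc
Psmb6 (chr11:70525107-70525356, plus strand): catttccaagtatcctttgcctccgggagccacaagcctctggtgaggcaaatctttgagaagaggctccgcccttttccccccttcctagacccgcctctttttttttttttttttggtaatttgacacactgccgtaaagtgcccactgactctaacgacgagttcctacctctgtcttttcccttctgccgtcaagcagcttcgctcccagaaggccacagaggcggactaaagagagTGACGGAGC
Psmb5 (chr14:54617996-54618245, minus strand): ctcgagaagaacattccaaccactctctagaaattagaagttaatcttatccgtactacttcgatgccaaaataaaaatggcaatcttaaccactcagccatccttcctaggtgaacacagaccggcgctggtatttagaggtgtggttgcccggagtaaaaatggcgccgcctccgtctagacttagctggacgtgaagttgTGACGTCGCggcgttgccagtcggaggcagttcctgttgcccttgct
Psmb4 held none of the 4 motifs in this window. Psmb6 and Psmb5 each held an NRF1 element close to the start, and the starts of Psma6 held CCAAT boxes at one and an ETS site at the other. An NRF1 element stood upstream of 5 of the 39 genes (12.8%), against 11.5% of 27025 genes in the RefSeq table. The CCAAT box stood upstream of 14 (35.9%, against 37.5%), the E-box of 4 (10.3%, against 6.86%) and the ETS site of 13 (33.3%, against 7.83%). Of the 9 genes whose floxed values all exceeded the controls, 1 held an NRF1 element, 4 a CCAAT box, 3 an ETS site and 1 an E-box. The table's genes include noncoding ones, and a match describes letters and no binding.

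Of the 21 Psmc and Psmd genes grouped as the cap, 16 lay on the higher side, with a median difference of 0.18. The 21 take in Psmc3ip and 3 base assembly chaperones, all of them higher and none a cap subunit. Of the 6 ATPases proper 4 were higher and 2 lower, with a median of 0.12. The ATPase gene Psmc1 had the largest difference of the cap, with values of 9.61, 9.57 and 9.09 in the controls, against 9.80, 9.81 and 9.89 in the floxed arrays. Its groups did not overlap, and the difference was 0.41 (SE 0.16; 95% confidence interval 0.065 to 0.76; limma adjusted p = 0.915), or 0.24 without control replicate 3. It shrank to 0.17 and 0.039 when probe sets below the median or the 75th percentile of level were left out. The other 5 ATPases of the ring had smaller differences. Psmc6 had 9.73, 9.07 and 9.23 against 9.84, 9.43 and 9.51 (difference 0.25, SE 0.19), control replicate 1 lying above 2 of the floxed arrays. Psmc5 had 0.19 with overlapping groups, and Psmc2, Psmc3 and Psmc4 had 0.043, -0.029 and -0.085. Psmc4 had 10.12, 10.45 and 10.19 against 10.08, 10.11 and 10.32, and its sign turned with the mean of its probe sets in place of the median (0.045). Psmc3ip falls among the 47 by its letters alone. It encodes a meiotic recombination factor that is no part of the proteasome; it had 7.71, 7.24 and 7.17 against 7.56, 7.65 and 7.70 (difference 0.26, SE 0.18) at a level below the median of probe sets. Without Psmc3ip, Psma8 and Psmb11 the median of the remaining 44 genes was 0.16.

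Of the 14 Psmd genes 11 were higher, and the ubiquitin receptor Psmd4 and the base chaperone Psmd10, also known as gankyrin, had the largest values. Psmd4 had 8.68, 8.69 and 8.06 in the controls, against 8.78, 8.82 and 8.89 in the floxed arrays. The groups did not overlap, but controls 1 and 2 lay just below the floxed arrays, and the difference of 0.35 (SE 0.18) was 0.14 without control replicate 3 and -0.17 with only its brightest probe sets, those at or above the 75th percentile of level. Psmd10 had 9.65, 8.98 and 8.65 against 9.49, 9.42 and 9.52, so control replicate 1 was the highest array of all (difference 0.39, SE 0.21). Leaving out control replicate 3 put Psmd10 at 0.17, and leaving out control replicate 1 at 0.66. The other chaperones of base assembly, Psmd5 and Psmd9, had 0.069 and 0.15. In the lid, which holds the deubiquitinase, 6 of 8 genes were higher with a median of 0.13. Psmd13 had 9.94, 9.88 and 9.75 in controls against 10.04, 10.14 and 10.10 in floxed arrays, without overlap (difference 0.24, SE 0.12), but its difference was 0.040 with probe sets at or above the median level. The deubiquitinase gene Psmd14 had 11.07, 10.74 and 10.77 against 11.23, 11.07 and 10.97 (difference 0.23, SE 0.13), where control replicate 1 reached into the floxed range, and 0.090 with the mean of probe sets. Psmd6, Psmd3, Psmd12 and Psmd8 of the lid had 0.19, 0.18, 0.076 and 0.073. On the lower side stood the lid subunits Psmd11, with 9.69, 9.69 and 9.74 against 9.73, 9.37 and 9.52 (difference -0.17, SE 0.14), and Psmd7, at -0.0066. The mean of the probe sets put Psmd11 at 0.090. The large scaffold subunits of the base, Psmd1 and Psmd2, had 0.18 (SE 0.13) and -0.16 (SE 0.13) as gene medians, but 0.014 and 0.033 with the mean of probe sets.

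The activators split evenly, 2 higher and 2 lower, with a median of 0.0020, which was -0.028 after quantile normalization. Psme2, which forms a ring with Psme1 and is inducible by interferon gamma, had 11.04, 10.54 and 10.55 in the controls, against 11.03, 11.09 and 11.05 in the floxed arrays. Control replicate 1 matched the floxed arrays while controls 2 and 3 lay well below, and the difference was 0.35 (SE 0.14; 95% confidence interval 0.032 to 0.66; limma adjusted p = 0.915). Its ring partner Psme1 had -0.097 (SE 0.13), with 11.03, 11.32 and 10.94 against 10.90, 10.97 and 11.13. The nuclear activator Psme3 had 11.15, 11.18 and 11.24 against 11.35, 10.89 and 10.96 (difference -0.12, SE 0.13). Its highest gene value, on floxed replicate 1, was that of probe set 10381357, which fell in the middle on that array. That probe set was higher in floxed arrays by 0.12, unlike most of the gene. Of the 13 probe sets of Psme3 11 were lower in floxed arrays, and 4 of them without overlap, as 4.24% of all probe sets were. Psme4, the single-chain activator with the most probe sets of the members, had 9.58, 9.61 and 9.42 against 9.75, 9.55 and 9.63, with overlap (difference 0.10, SE 0.13), and 35 of its 48 probe sets were higher. The inhibitor gene Psmf1, with 9.57, 9.55 and 9.25 against 9.53, 9.25 and 9.88, had a difference of 0.095 (SE 0.17).

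The core chaperones act as pairs, Psmg1 with Psmg2 and Psmg3 with Psmg4, and build the ring of alpha subunits. Psmg1 was the only member whose floxed values all lay below the controls, with 9.72, 9.70 and 9.62 against 9.30, 9.52 and 9.55 (difference -0.22, SE 0.13; 95% confidence interval -0.51 to 0.063; limma adjusted p = 0.915). That direction belonged to the gene median alone. Of its 7 probe sets 6 were higher in floxed arrays, and the remaining one, which fell in the middle by level and so supplied the median, had the lower value of -0.22. When each probe set was set to a common level before the median was taken, an alternative chosen after seeing the data, Psmg1 had 0.10. Its partner Psmg2 had 9.96, 9.10 and 8.99 against 9.76, 9.75 and 9.57 (difference 0.34, SE 0.22), with control replicate 1 the highest of the 6 arrays. Psmg2 had 0.16 without control replicate 3, 0.65 without control replicate 1, and -0.011 with only its brightest probe sets. Psmg3 separated at a dim level, with 7.23, 7.38 and 7.37 against 7.73, 7.42 and 7.46 (difference 0.21, SE 0.17), and Psmg4 had 0.14 (SE 0.14).

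Probe sets were also taken singly, to see how evenly a gene's parts differed. The 47 genes had 481 probe sets, between 3 and 48 each, of which 348 (72.3%) were higher in floxed arrays, where 53.5% of all probe sets were. Probe sets of a gene share its transcript and are not independent. In limma none of the 481 passed (smallest adjusted p = 0.976), beside 6 of all 241576 (0.00248%), and at an unadjusted p under 0.05 stood 37 on the higher side (7.69%, against 2.64% of all probe sets) and 3 on the lower (0.624%, against 1.97%). Every probe set was higher for 12 genes, among them the 13 of Psma3, the 8 of Psma6, and the 7 each of Psmb4, Psmb6 and Psmb7. The share of all genes with every probe set higher was not counted. For Psma3 8 of the 13 did not overlap between the groups, and for Psma6 6 of the 8, where 5.25% of all probe sets were higher without overlap. All 10 probe sets of Psmc1 were higher too, 2 of them without overlap. At the other end all 3 probe sets of Psmb5 were lower, with differences from -0.27 to -0.0045, 1 of them without overlap. For Psmf1 6 of 8 probe sets were lower although its gene value was higher, and the centred alternative gave -0.095. How probe sets were combined turned the sign of several other genes, not only those with the smallest differences. Psmb11 and Psmd3 had 0.22 and 0.18 as gene medians. With the mean of probe sets Psmc3 had 0.20, Psmd7 0.19, Psmd5 -0.056, Psmb3 -0.044, Psma5 -0.031 and Psmb11 -0.11. With only the brightest probe sets Psmd3 had -0.12 and Psmd9 -0.079.

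**Figure D5:**
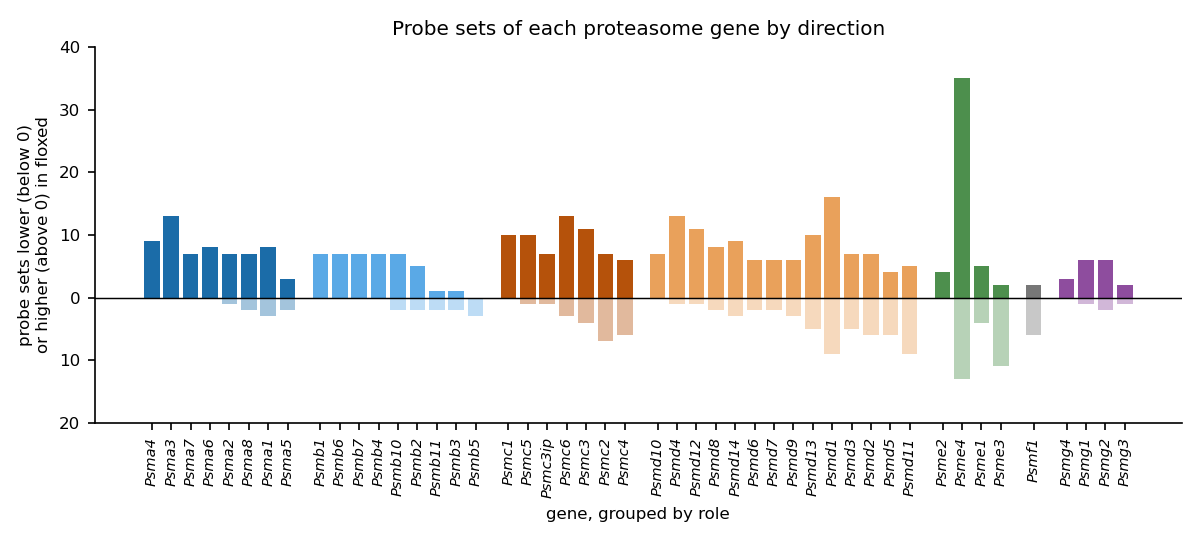
Number of probe sets of each proteasome gene that were higher (dark bars, above 0) or lower (pale bars, below 0) in floxed arrays, grouped and coloured by role and ordered within a role by the share that was higher. Pale bars are absent for 12 genes, among them Psma3, Psma6, Psmb4 and Psmc1, while Psmb5 has 3 lower and 0 higher and Psme3 11 lower and 2 higher.

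Of 34 listed genes that work with the proteasome without a Psm symbol 26 were measured, 19 higher and 7 lower, and none passed in limma (1 higher and 1 lower at an unadjusted p under 0.05). Of 10 cap and assembly partners 9 were measured, 8 higher and 1 lower, with a median of 0.15. Sem1, a small subunit of the lid that the array annotation names Shfm1, had 10.17, 9.99 and 9.52 in the controls, against 10.46, 10.43 and 10.49 in the floxed arrays. No control reached the floxed values, and the difference was 0.57 (SE 0.16; limma adjusted p = 0.915), larger than that of any of the 47, on 3 probe sets. The cap-bound deubiquitinase Usp14 had 0.29 (SE 0.14) and the proteasome adaptor Ecpas 0.16 (SE 0.13). Of 10 shuttle factors and unfoldase genes 9 were measured, 5 higher and 4 lower, and the largest difference pointed down. Zfand2a, a stress-inducible proteasome-associated protein, had 9.95, 10.13 and 9.92 against 9.23, 8.99 and 9.74, without overlap (difference -0.68, SE 0.18; limma adjusted p = 0.915). The unfoldase gene Vcp and the proteasome-binding Zfand5 had 0.25 and 0.21. Among 7 of 8 measured regulators of proteasome genes, 5 were higher and 2 lower. Nfe2l1 had 9.50, 9.99 and 9.36 against 9.25, 9.29 and 9.46, with overlap (difference -0.29, SE 0.17). Nfyc, a subunit of the factor that binds CCAAT boxes, had 0.25, and Stat3 had 0.14. The other subunits of that factor, Nfyb and Nfya, had 0.18 and -0.088. The groups of Nfya did not overlap (5.49% of all genes were lower without overlap). Of 6 ubiquitin and ubiquitin-activating genes only Uba6 could be measured by a single symbol, at 0.20 (SE 0.14). The chaperonin, a folding machine given for comparison, had all 8 genes higher with a median of 0.27, led by Cct6a (0.46), Cct8 (0.41) and Cct3 (0.37), and 5 of the 8 did not overlap between the groups (5.05% of all genes were higher without overlap). None of the 8 passed in limma (smallest adjusted p = 0.915), and its difference from the proteasome genes was not tested.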

How the data were processed

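Expression of 47 proteasome genes was taken from 6 arrays of sorted mouse stem cells, 3 control and 3 floxed, grouped by sample title. The authors deposited log2 values for 241576 probe sets; MAS5 is named in the submitters' processing notes, without its role or version. How background was corrected and arrays normalized is not given in the sources used here, and the log2 base was read from the range, 2.44 to 14.53, since linear values would reach further. A platform annotation gave 1 symbol to 212097 probe sets; the others (4475 with several symbols, 4 of them with a member's, and 25004 with none) were left out. Taking each gene's median gave 20416 genes; no further normalization or filter was applied, and 42 of the 47 members had a mean at or above 7.60, the median of probe-set means. All genes were fitted in R 4.3.3 by limma 3.58.1 (eBayes with trend; two-sided; Benjamini-Hochberg over all genes, threshold 0.05), and probe sets likewise. The limma fit was tested on simulated data with added differences larger than that of any member. Whether differences of the members' size would pass was not tested. The number of arrays limits the precision.

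The members and lists were chosen with earlier results of these data known. Symbols of the lists were looked up through RefSeq synonyms (GRCm38.p6), which found 34 of 42 pathway genes (8 of them the chaperonin) and 35 of 41 markers. Every member could be named; those given in full were Psmb5, Psmb6 and Psmb7, per role the 3 of smallest p and the largest difference in each direction, and of each pathway list the 3 of smallest p. Other members given with array values (Psma4, Psma7, Psmb11, Psmd8, Psmd14 and Psme1) were picked with their values known. Nfya and Nfyb were likewise added beside Nfyc with their values known. The alternatives tried were quantile normalization, arrays set to equal medians, filters on dim probe sets at the median and the 75th percentile, the mean of probe sets, no trend, weights per array, a block on replicate number, each array left out, and, added after seeing the data, probe sets centred before the gene median and the members without Psmc3ip, Psma8 and Psmb11.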

Additional observations from a re-analysis of the deposited data

How the results depend on the processing

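No member passed in limma under any alternative, and the count of higher members stayed between 32 and 39. Leaving out 1 array gave members' medians of 0.045 to 0.22; the median was 0.15 with quantile normalization, 0.15 with equal array medians, 0.14 and 0.12 with the filters on dim probe sets, 0.18 with the mean of probe sets and 0.15 with array weights and with probe sets centred. Leaving out 1 array gave 0.10 to 0.29 for the core and 0.045 to 0.18 for the cap, lowest without control replicate 3 each time. Under the filters at the median and the 75th percentile the median over all genes rose to 0.018 and 0.034. There 76.1% and 75.6% of the measured members were higher, against 54.2% and 58.5% of all genes. The members' excess over all genes was thus smaller among bright probe sets. The activators' median changed sign with quantile normalization (-0.028), equal array medians (-0.029), the filter at the median (-0.023) and array weights (-0.044), and ran from -0.027 to 0.076 with 1 array left out. Outside the omissions of an array 18 of the 47 members changed sign under some alternative, 2 of them (Psmd4 and Psmg1) among the 10 without overlap. The filter at the 75th percentile turned 10 of 45 measured, that at the median 4 of 46, the mean of probe sets 11, centring 11, array weights 5 and quantile normalization 1. Among them were, with the filter at the 75th percentile Psmd11 (0.050), Psmd4 (-0.17), Psmf1 (-0.16), Psmg1 (0.21) and Psmg2 (-0.011); with the mean of probe sets Psmc4 (0.045), Psmd11 (0.090), Psmf1 (-0.13) and Psmg1 (0.084); with probe sets centred Psmc4 (0.016), Psmd11 (0.026), Psmf1 (-0.095) and Psmg1 (0.10); and with array weights Psmb5 (0.067), Psma5 (-0.11), Psmb11 (-0.047), Psmc2 (-0.095) and Psmd5 (-0.099). With 1 array left out Psmb5 ran from -0.13 to 0.16, Psmc4 from -0.16 to 0.012 and Psmf1 from -0.069 to 0.25. Of the 47 members 30 stayed higher and 4 lower with each array left out in turn. The same counts over all genes were not taken, and these fits share most of their arrays. The cause of the changes of sign was not tested.

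Over all genes 2 passed, 0 under each filter on dim probe sets, and 0 to 9 with 1 array left out. Ctnnb1 as a gene median had -0.97 (limma adjusted p = 0.125). It passed with the mean of probe sets (-1.53) and array weights (-1.09). With 1 array left out it ran from -1.07 to -0.86, passing without control replicate 1. Its difference was only -0.16 with the filter at the 75th percentile and -0.23 with probe sets centred (limma adjusted p = 0.988 and 0.921). The gene-level difference of Ctnnb1 thus depended on how its probe sets were combined. Nothing in the labels says whether arrays with the same replicate number were paired. Deviations from the group means of same-numbered arrays correlated at 0.182, -0.00654 and -0.159 over genes. Different-numbered arrays were not compared in this way, so these values cannot decide it. With the replicate block 0 members passed in limma, and 5 in place of 6 had an unadjusted p under 0.05. In this balanced design the block cannot change a difference, so the 38 higher members and the median of 0.18 were bound to stay the same. No detection calls were given, so how far signal stood over background cannot be said for Psma8, Psmb11, Psmc3ip, Psmd9 and Psmg3, the members below the median level.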

Other observations

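The probe sets of Psmc4, an ATPase of the cap, differed in direction, as noticed once their values were known. The pair with the lowest probe-set numbers, 10561357 and 10561358, lay higher in floxed arrays by 0.47 and 0.44, neither passing in limma (smallest adjusted p of the gene's probe sets 0.976). On the first, controls had 12.26, 11.98 and 11.94 and floxed arrays 12.48, 12.51 and 12.60, without overlap. Probe set 10561364 of the same gene lay lower by 0.40, with 9.36, 9.73 and 9.35 against 9.23, 8.78 and 9.23. The gene value, a median over all 12, differed by -0.085. Exon positions of the probe sets were not analysed here.

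A single probe set of Psmf1, 10488581, had 5.58 on floxed replicate 2, against 8.68 to 9.93 on the other 5 arrays. The 7 other probe sets of Psmf1 showed no such gap on that array. Probe set 10488581 enters the gene median and the mean of probe sets given for Psmf1, and neither was computed without it.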
